A study of Mus musculus with 11 samples.

Results

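The transcriptome of kidney cell preparations 7 days after ureteral obstruction was compared with that 3 days after it. Unilateral ureteral obstruction (UUO) closes the ureter of one kidney in a mouse and is used as a model of renal fibrosis. Of the 11 RNA-seq libraries of the series, 8 were taken for this comparison by their labels, 4 from UUO kidneys at day 7 and 4 from UUO kidneys at day 3. The other 3, from control kidneys, entered the filter on mean level and the estimate of the spread between libraries. Their means are given where they help to place a level. All kidneys came from adult C57BL/6 mice, and no allele and no drug is named for any group. The labels call the cells primary kidney fibroblasts. They were set free by digesting the kidney and enriched in culture medium with serum, per the labels' protocols, and no sorting step is named in the sources used here. Whether the replicates of a day are separate animals is not stated in the labels, and every p-value therefore reflects only how far these samples scatter, a scatter that may be technical.

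Closing the ureter injures the tubules, draws monocytes and macrophages into the kidney and turns resident fibroblasts and pericytes into matrix-secreting myofibroblasts. Tubule injury, inflammation and cell division are known to start early, and collagens and elastic fibres build up over the following days. Transforming growth factor beta (TGF-beta), platelet-derived growth factors and Wnt ligands are among the known signals that drive fibroblasts to make matrix.

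Expression is given as FPKM, fragment counts corrected for the length of the transcript and for how many fragments of that library mapped, so levels of different genes can be set side by side per length. The deposited values carry no counts, and the depth of each library is therefore unknown. The FPKM values of a library summed to between 260952 and 268380 at day 7 and between 272090 and 283352 at day 3, with 4.27% to 7.94% of the sum at day 7 and 6.06% to 7.29% at day 3 in the 13 protein genes of the mitochondrial genome. Libraries correlated across genes at 0.965 to 0.988 within day 7, at 0.967 to 0.985 within day 3 and at 0.933 to 0.965 between the days, and genes are not independent replicates in these values. The preparations held transcripts of several kinds of cell beside those of fibroblasts. The fibroblast receptor Pdgfra stood at 9.88 ± 3.1 FPKM at day 7 and 4.57 ± 1.1 FPKM at day 3, the macrophage receptor Adgre1 at 106 ± 11.6 and 99.7 ± 27 FPKM, the epithelial adhesion gene Epcam at 67.5 ± 8.31 and 95.1 ± 15.2 FPKM, and uromodulin (Umod) of the thick ascending limb at 331 ± 40.7 and 507 ± 93.2 FPKM (mean ± SD, n = 4 at each day, as below). In such bulk samples, fewer cells of a type and less RNA per cell cannot be told apart. Among these libraries 3 stood apart. Day 7 replicate 3 was low in matrix genes, with 0.51% of the nuclear FPKM in fibrillar collagens against 1.29% to 1.34% in the other day 7 libraries. Day 3 replicate 1 held liver-type transcripts, with 0.354% of the nuclear FPKM in hepatocyte markers against 0.0424% to 0.0538% in the other day 3 libraries. Day 3 replicate 3 was high in neutrophil markers, and on the second principal component of the 8 libraries, with 17.9% of the variance, it lay at 23.99 beside day 7 replicate 3 at 23.88, against −18.16 to 2.67 in the other day 3 libraries. For lists in which at least 4 genes were called one way, a count that moved by over 1.5 times without one of these libraries is given beside the list.

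Between the days, genes of collagens, elastic fibres and other matrix, together with genes of fibroblast identity and some macrophage genes, were higher at day 7, while genes of the proximal tubule, the fibrinogen chains and part of the cell division and replication genes were lower. Of 13428 genes tested, 2114 (15.7%) were called, that is, had a Benjamini-Hochberg adjusted p under 0.05 in limma over all genes tested. Of these, 990 (7.37% of the genes tested) were higher at day 7 and 1124 (8.37%) lower, a balance that turned with the scaling, to 1074 higher and 897 lower after rescaling to TPM and to 1120 higher and 960 lower with median centring. The day 7 and day 3 libraries did not overlap in 2733 genes (20.4%), of which 1797 (13.4% of the genes tested) were called, and the unadjusted p was under 0.05 in 3992 (29.7%). Larger changes leaned to the higher side, since 318 genes (2.37%) were called and at least 2-fold higher, against 178 (1.33%) at least 2-fold lower, on the log2(FPKM + 1) scale used for all fold changes here. That scale understates the change of low genes. The median difference over all genes tested was −0.04 on the log2 scale. Without day 7 replicate 3 and day 3 replicate 1 together, 1031 genes were called higher and 661 lower. The number called lower was 1630 without day 3 replicate 3. The number called was 1403 without day 7 replicate 1 and 1366 without day 7 replicate 4, and the number called lower was 614 without day 3 replicate 2, 661 without day 3 replicate 4, 647 without day 7 replicate 1 and 661 without day 7 replicate 4.

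**Figure D1:**
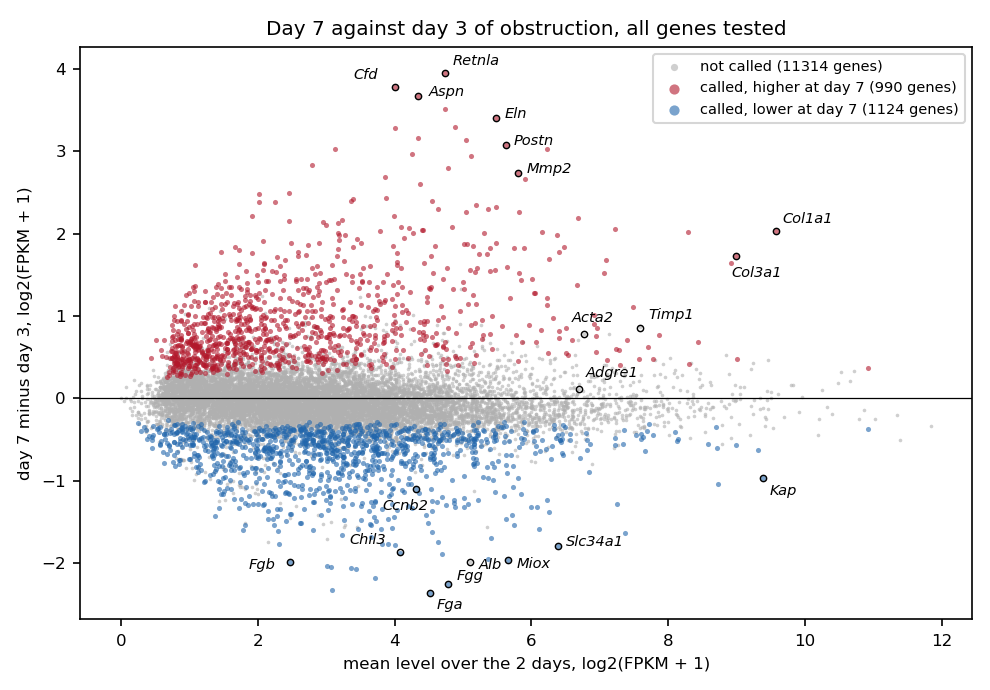
Each point is one gene. The x axis is the mean level over both days and the y axis the difference, day 7 minus day 3, both as log2(FPKM + 1), with 990 genes called higher in red, 1124 called lower in blue and the others in grey. Labelled rises such as Retnla and Eln lie above 3, the fibrinogen genes Fga, Fgg and Fgb lie near −2, and Acta2, Timp1, Adgre1 and Alb were not called.

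Among called genes whose days did not overlap and which had at least 5 FPKM at one of the days, the largest rise was that of Retnla, which encodes resistin-like alpha, a protein secreted by alternatively activated macrophages in mice (ENSMUSG00000061100.3, chromosome 16, 48842552 to 48844461 in GRCm38). Retnla had 44.5, 56, 56 and 37.5 FPKM in the day 7 libraries, against 2.08, 5.57, 0.645 and 2 FPKM in the day 3 libraries. Every day 7 library lay well above the highest day 3 library, and the difference was 3.95 on the log2 scale (SE 0.31, limma adjusted p = 6.82e-05). The control mean was 6.13 ± 0.423 FPKM (SD, n = 3), so the day 3 mean of 2.57 FPKM lay below it. Next came Cfd, which encodes adipsin (complement factor D), a protease known from fat cells. Cfd had 25.6, 47.4, 3.21 and 42.1 FPKM at day 7, against 0.19, 1.19, 0.652 and 0.517 FPKM at day 3 (log2 difference 3.78, SE 0.69, limma adjusted p = 0.0033). Day 7 replicate 3 stood far below the other day 7 libraries but above all day 3 libraries, and without it the difference was 4.58.

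Most of the other large rises were genes of secreted matrix proteins. Aspn encodes asporin, a small leucine-rich proteoglycan that binds collagen and TGF-beta, and had 79.4, 17.9, 29.4 and 22.3 FPKM at day 7, against 1.16, 1.93, 1.25 and 1.85 FPKM at day 3 (log2 difference 3.67, SE 0.35, limma adjusted p = 0.000147). Day 7 replicate 1 was the highest by far. Eln, the gene of elastin, had 88.7, 93, 30.4 and 111 FPKM at day 7, against 9.02, 8.37, 2.52 and 6.13 FPKM at day 3 (3.40, SE 0.39, limma adjusted p = 0.000322). Replicate 3 was the lowest library of each day for elastin. The membrane protein gene Itm2a (3.51), the matricellular protein gene Nov (3.28), the secreted C1q-family gene C1qtnf3 (3.16), the Wnt modulator gene Sfrp2 (3.14), Postn (3.07), the collagen VIII chain gene Col8a2 (3.03) and the gene of lumican, Lum (3.03), followed. All of these largest rises were drawn from genes whose days did not overlap, so that separation follows from the choice. Ear2, a ribonuclease gene expressed in eosinophils and some macrophages, rose by 3.29 and was highest at 76.2 FPKM in day 7 replicate 3, the library that was low in matrix. C1qtnf3 had a control mean of 18.8 FPKM, so that its day 3 mean of 2.84 ± 0.833 FPKM lay below control and its day 7 mean of 35.8 ± 17 FPKM above it.

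Among called genes whose days did not overlap, with at least 5 FPKM at one of the days and no provisional symbol, the deepest falls were those of Fga (−2.36), the retinol dehydrogenase family gene Rdh16f2 (−2.33), Fgg (−2.25), the secreted phosphoprotein gene Spp2 (−2.18), the steroid dehydrogenase family gene Hsd3b4 (−2.06), the cytochrome P450 gene Cyp2d26 (−2.04), Fgb (−1.99), Miox (−1.96), the urate transporter gene Slc22a12 (−1.95), the glycosyltransferase gene Ugt3a2 (−1.89), Chil3 (−1.87) and Slc34a1 (−1.79). In the 8 of these genes other than the fibrinogen chains and Chil3, the control mean was higher still, from 22.8 FPKM for Rdh16f2 to 780 FPKM for Miox.

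**Figure D2:**
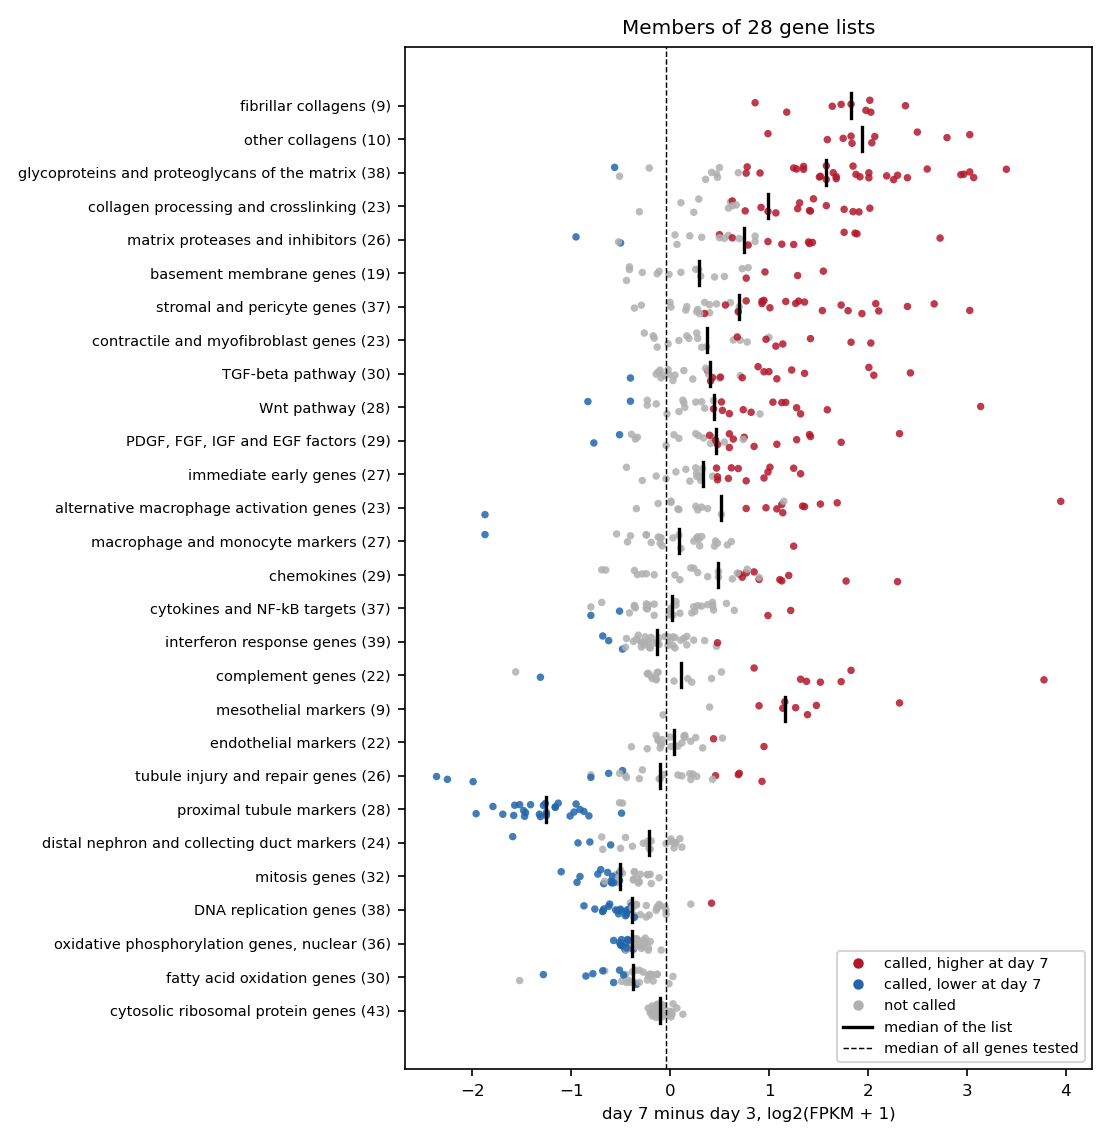
Each row is a gene list with the number of members tested in brackets, and each point is a member's difference, day 7 minus day 3, as log2(FPKM + 1), in red where called higher, in blue where called lower and in grey otherwise. Short black lines are list medians and the dashed line is the median of all genes tested at −0.04. The collagen lists lie wholly to the right, with medians of 1.83 and 1.94, the proximal tubule list lies to the left at −1.25, and the macrophage and cytokine lists straddle the dashed line.

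All 9 fibrillar collagens tested rose, with a median of 1.83. Col1a1, the alpha 1 chain of collagen I (ENSMUSG00000001506.10, chromosome 11, 94936224 to 94953042), had 1492, 1498, 563 and 1390 FPKM at day 7, against 296, 398, 168 and 318 FPKM at day 3. The other chain of that fibre, Col1a2, had 611, 597, 229 and 581 FPKM at day 7, against 118, 159, 76.7 and 120 FPKM at day 3. Replicate 3 was the lowest library of each day for both chains, and its day 7 value still lay above all day 3 values. The differences were 2.03 (SE 0.33, limma adjusted p = 0.00187) for Col1a1 and 2.02 (SE 0.31, limma adjusted p = 0.00137) for Col1a2. Col3a1, the chain of collagen III, averaged 788 ± 295 FPKM at day 7 and 226 ± 61.2 FPKM at day 3 (1.73, SE 0.30, limma adjusted p = 0.00273). Col5a1, a chain of collagen V that starts fibrils, rose by 1.98. Col11a1, a fibril gene best known from cartilage, averaged 5.9 ± 3.17 FPKM at day 7 and 0.185 ± 0.0702 FPKM at day 3 (2.38, SE 0.31, limma adjusted p = 0.000632). Without day 7 replicate 3 the median of the 9 genes was 2.21, and with each library left out in turn 8 or 9 of them were called.

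The 10 other collagens tested rose as well, with a median of 1.94. Col8a1, a short-chain collagen of vessel walls and scars, had 61.4, 48, 16.4 and 66 FPKM at day 7, against 5.55, 5.41, 5.32 and 4.72 FPKM at day 3 (2.80, SE 0.33, limma adjusted p = 0.00042). Col10a1, a collagen of hypertrophic cartilage, had 12.5, 12.7, 0.823 and 8.43 FPKM at day 7, against 0.716, 0.162, 0.336 and 0.163 FPKM at day 3 (2.50, SE 0.50, limma adjusted p = 0.0056). In day 7 replicate 3 Col10a1 barely exceeded the highest day 3 library. Col16a1, a fibril-associated collagen, rose by 2.07. Of the basement membrane, the sheet under epithelia and vessels, 4 of 19 genes tested rose, none fell and 15 were not called, with a median of 0.29. Those that rose were the linker gene Nid1 (65.7 ± 24.6 FPKM at day 7 and 20.7 ± 4.11 FPKM at day 3, 1.55) and the laminin chain genes Lama4 (1.29), Lama2 (0.96) and Lamb2 (0.77, limma adjusted p = 0.0415). Without day 7 replicate 3, 9 basement membrane genes rose. The call of Lamb2 was lost with 9 of the 11 libraries left out in turn, at a limma adjusted p of 0.0548 to 0.117, and it held without control replicate 2 or day 7 replicate 3.

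Of 38 glycoproteins and proteoglycans of the matrix, 29 rose, 1 fell and 8 were not called, with a median of 1.58. Postn, which encodes periostin, a matricellular protein of scars, had 171, 59.9, 47.1 and 73.7 FPKM at day 7, against 7.97, 11.6, 6.7 and 7.69 FPKM at day 3 (3.07, SE 0.31, limma adjusted p = 0.000198). Periostin was highest in day 7 replicate 1, the library that was also highest in asporin. Fmod, the gene of the collagen-binding proteoglycan fibromodulin, averaged 32.7 ± 15.7 FPKM at day 7 and 3.27 ± 2.07 FPKM at day 3 (2.97), and Lum averaged 132 ± 40.4 and 16.1 ± 8.7 FPKM (3.03). Fn1, the gene of fibronectin, on which collagen fibrils assemble, had 182, 291, 111 and 250 FPKM at day 7, against 67.1, 51.3, 44.2 and 87.9 FPKM at day 3 (1.68, SE 0.27, limma adjusted p = 0.00185). All day 7 values of Fn1 lay above all day 3 values, with replicate 3 the lowest of each day.

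Genes whose products fold, trim and crosslink collagen rose too. Of 23 genes, 15 rose, none fell and 8 were not called, with a median of 0.99, and 20 rose without day 7 replicate 3. Lox, the lysyl oxidase that crosslinks collagen and elastin, had 118, 148, 49.6 and 141 FPKM at day 7, against 36.4, 30.3, 15.6 and 23 FPKM at day 3 (2.02, SE 0.32, limma adjusted p = 0.00167), with no overlap between the days. The prolyl hydroxylase subunit gene P4ha3 (1.91), the procollagen peptidase gene Adamts2 (1.85) and the lysyl oxidase-like gene Loxl1 (1.76) rose too. Proteases that cut matrix and their inhibitors numbered 26, of which 13 rose, 2 fell and 11 were not called, with a median of 0.75. Mmp2, a gelatinase secreted by fibroblasts, had 115, 112, 48.2 and 113 FPKM at day 7, against 12.8, 16.7, 10.6 and 12.3 FPKM at day 3 (2.73, SE 0.25, limma adjusted p = 0.000126). Day 7 replicates 1, 2 and 4 lay close together and replicate 3 lay well below them, yet above all day 3 libraries. Ctsk, the collagen-degrading cathepsin K (1.87), Mmp23 (1.76) and the neutrophil collagenase Mmp8 (1.89) rose. Mmp8 was highest in day 7 replicate 3, at 20.4 FPKM against 3.85 to 11.2 FPKM in the other day 7 libraries. Timp1, the inhibitor of these metalloproteinases, had 157, 527, 111 and 235 FPKM at day 7, against 204, 91.1, 82.3 and 126 FPKM at day 3. The days overlapped, the difference was 0.86 (SE 0.41) and it was not called (limma adjusted p = 0.187), whereas without day 7 replicate 3 and day 3 replicate 1 together it was 1.44 and called (limma adjusted p = 0.0253).

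**Figure D3:**
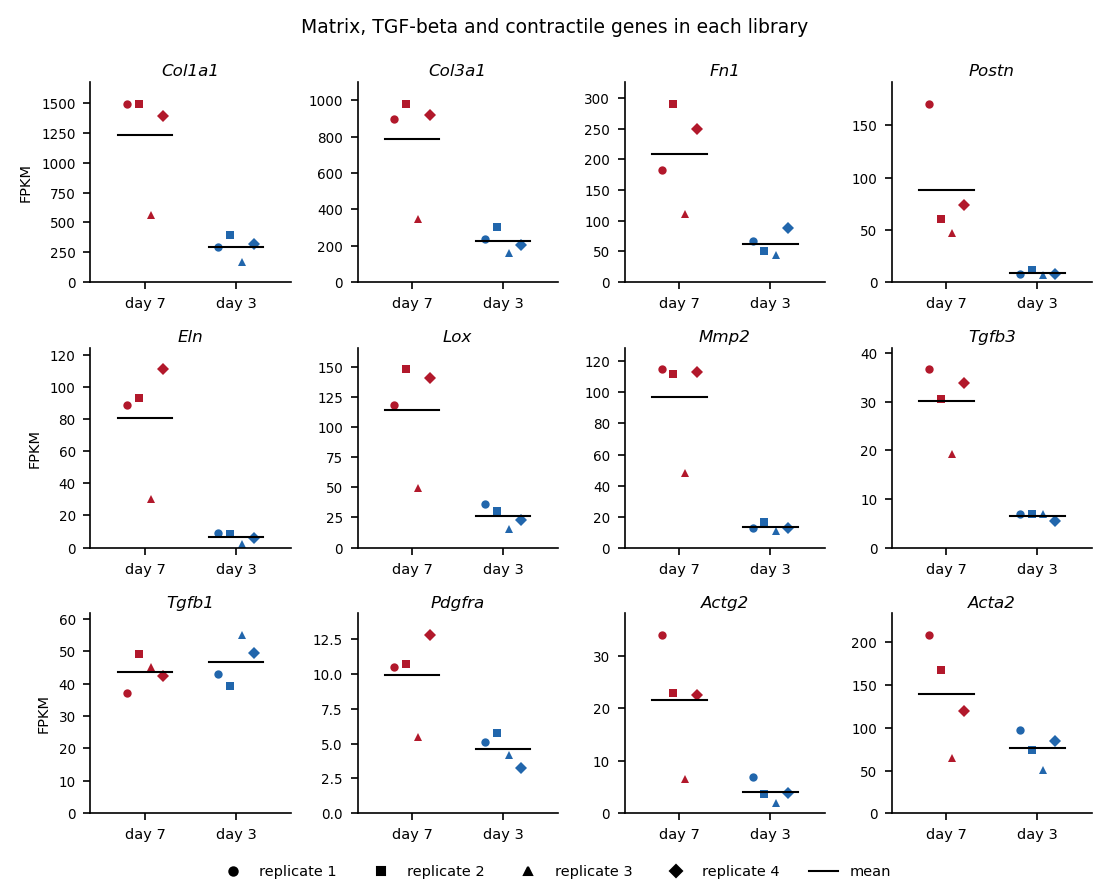
FPKM of 12 genes in each library, with day 7 in red on the left and day 3 in blue on the right of each panel, symbols for the replicate number and a black line at the mean. In Col1a1, Col3a1, Lox and Mmp2 day 7 replicate 3 (triangle) is the lowest day 7 library and lies above every day 3 library. In Tgfb1 and Acta2 the days overlap.

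Genes of fibroblast identity were higher at day 7. Of 37 stromal and pericyte genes, 21 rose, none fell and 16 were not called, with a median of 0.70. Dpt, the gene of dermatopontin, a small matrix protein of fibroblasts, had 131, 109, 58.4 and 109 FPKM at day 7, against 9.83, 28.6, 12.7 and 12.3 FPKM at day 3 (2.67, SE 0.32, limma adjusted p = 0.00042). The microfibril gene Mfap5 (2.40) and the leucine-rich repeat gene Lrrc17 (2.11) rose as well. Pdgfra, the platelet-derived growth factor receptor of fibroblasts, had 10.5, 10.7, 5.47 and 12.8 FPKM at day 7, against 5.14, 5.73, 4.17 and 3.24 FPKM at day 3 (0.93, SE 0.21, limma adjusted p = 0.0112), with day 7 replicate 3 below the highest day 3 library. Its partner receptor Pdgfrb, of pericytes, averaged 19 ± 6.23 FPKM at day 7 and 11 ± 3.54 FPKM at day 3 and was not called (0.70, limma adjusted p = 0.0879), but it was without day 7 replicate 3 (0.98, limma adjusted p = 0.00448) and without day 3 replicate 1 (0.89, limma adjusted p = 0.0389). The mesenchymal transcription factor genes Twist1 (12.8 FPKM at day 7 and 3.09 FPKM at day 3, 1.73) and Prrx1 (6.16 and 1.43 FPKM, 1.54) and the Hedgehog target Gli1 (2.85 and 0.848 FPKM, 1.01), named after their values were seen, also rose. Vim, the intermediate filament gene of mesenchymal cells and macrophages, averaged 150 ± 36.1 FPKM at day 7 and 122 ± 10.8 FPKM at day 3 and was not called (0.27, limma adjusted p = 0.292).

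Of 23 contractile and myofibroblast genes, 7 rose, none fell and 16 were not called, with a median of 0.37. Actg2, a smooth muscle actin, had 34, 22.9, 6.48 and 22.6 FPKM at day 7, against 6.84, 3.63, 1.96 and 3.9 FPKM at day 3 (2.03, SE 0.40, limma adjusted p = 0.00527). Itga11, a collagen-binding integrin of fibroblasts (1.83), the smooth muscle gene Cnn1 (1.42) and Fap, the fibroblast activation protease (1.14), rose. Acta2, the smooth muscle actin that is widely used to mark myofibroblasts (ENSMUSG00000035783.8, chromosome 19, 34241090 to 34255336), had 209, 168, 64.3 and 120 FPKM at day 7, against 97, 73.7, 50.4 and 84.8 FPKM at day 3. The days overlapped, with day 7 replicate 3 below 3 of the day 3 libraries, and Acta2 was not called (0.78, SE 0.30, limma adjusted p = 0.108). Without that library the difference was 1.11 and called (limma adjusted p = 0.00558), and 11 contractile genes rose.

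Of 30 TGF-beta pathway genes tested, 14 rose, 1 fell and 15 were not called, with a median of 0.40. Tgfb1, the ligand most often studied in fibrosis (chromosome 7), had 37.2, 49.2, 45.2 and 42.4 FPKM at day 7, against 42.9, 39.2, 55.1 and 49.4 FPKM at day 3 (−0.09, SE 0.15, limma adjusted p = 0.719). The days overlapped, and both means, 43.5 ± 5.06 FPKM at day 7 and 46.7 ± 7.04 FPKM at day 3, lay above the control mean of 9.02 FPKM. Tgfb3, which encodes another ligand of the same receptors, had 36.7, 30.6, 19.2 and 33.9 FPKM at day 7, against 6.89, 6.86, 6.94 and 5.52 FPKM at day 3 (2.01, SE 0.17, limma adjusted p = 6.82e-05). The lowest day 7 library of Tgfb3, replicate 3, exceeded every day 3 library. Tgfb2, named after its values were seen, averaged 8.97 FPKM at day 7 and 3.06 FPKM at day 3 (1.23, limma adjusted p = 0.00259). All 4 latent TGF-beta binding protein genes tested, whose products tether the ligands to the matrix, rose, with Ltbp2 at 24.1 ± 12.6 FPKM at day 7 and 3.08 ± 0.708 FPKM at day 3 (2.43), Ltbp4 at 1.36 and, named after their values were seen, Ltbp3 at 0.95 and Ltbp1 at 0.89. Fstl1, a secreted follistatin-like glycoprotein gene, averaged 241 ± 80.3 FPKM at day 7 and 55 ± 12 FPKM at day 3 (2.06). The receptor genes Tgfbr1 (0.03) and Tgfbr2 (0.39, limma adjusted p = 0.0714), also named after their values were seen, were not called.

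Of 28 Wnt pathway genes, 13 rose, 2 fell and 13 were not called, with a median of 0.44. Sfrp2, a secreted Wnt modulator of fibroblasts, had 68.4, 58.2, 29.1 and 75.6 FPKM at day 7, against 3.17, 12, 3.12 and 6.02 FPKM at day 3 (3.14, SE 0.37, limma adjusted p = 0.000389). Dkk3, a dickkopf family gene (1.59), the receptor gene Fzd2 (1.32) and Sfrp1 (1.28) rose too, Sfrp1 with a call lost in 1 of the 11 fits that leave out a library. Among 29 genes of platelet-derived, fibroblast, insulin-like and epidermal growth factors, their receptors and binding proteins, 14 rose, 2 fell and 13 were not called, with a median of 0.46. Igfbp6, a binding protein of insulin-like growth factors, averaged 72.8 ± 24.4 FPKM at day 7 and 14.7 ± 8.22 FPKM at day 3 (2.32). Igf1 had 19.8, 12, 10.2 and 14.8 FPKM at day 7, against 5.58, 3.65, 5.72 and 3.6 FPKM at day 3 (1.41, SE 0.20, limma adjusted p = 0.000904). Igf2 (1.42) was highest in day 7 replicate 4, at 7.93 FPKM against 1.22 to 2.35 FPKM in the other day 7 libraries, and Fgf18 rose by 1.73. The number of growth factor genes that rose was 8 without day 7 replicate 1 and 9 without day 7 replicate 4.

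Immediate early genes, which are switched on within minutes of a stimulus and also by the digestion of tissue, moved upward. Of 27, 12 rose, none fell and 15 were not called, with a median of 0.33. Egr2, an early growth response factor gene, had 47.1, 36.8, 36.6 and 39.7 FPKM at day 7, against 21.4, 13.6, 12.8 and 14.7 FPKM at day 3 (1.32, SE 0.15, limma adjusted p = 0.000278). Egr3 (1.25), the flow-responsive factor gene Klf2 (1.01) and the orphan receptor gene Nr4a2 (0.99) rose as well. For Nr4a2 and Klf2 day 7 replicate 3 was the highest library, at 47.7 and 200 FPKM. Whether handling of the tissue had a part in these values was not tested.

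Of 27 macrophage and monocyte markers, 1 rose, 1 fell and 25 were not called, with a median of 0.09 that turned to −0.03 without day 7 replicate 3 and to −0.01 without day 7 replicate 2. The marker that fell was Chil3, and 5 markers rose without day 3 replicate 3 and 2 without day 7 replicate 1. Adgre1, the F4/80 receptor gene of tissue macrophages, had 88.5, 110, 111 and 113 FPKM at day 7, against 99.8, 77.3, 138 and 84 FPKM at day 3 (0.11, SE 0.17, limma adjusted p = 0.693). Ccr2, the receptor that draws monocytes out of the blood, averaged 14.3 ± 8.42 FPKM at day 7 and 10.7 ± 4.06 FPKM at day 3 (0.29, limma adjusted p = 0.629). The days overlapped for both genes, whose control means were 7.85 and 1.39 FPKM. The marker that rose was the lysozyme gene Lyz1, at 17.7 ± 4.96 FPKM at day 7 and 7.01 ± 2.85 FPKM at day 3 (1.25), and it shares sequence with Lyz2, so that its reads may be split. The summed FPKM of the macrophage list ranged from 4105 to 4832 at day 7 and from 3374 to 5683 at day 3.

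Of 23 genes of alternative activation, a state of macrophages tied to repair, 10 rose, 1 fell and 12 were not called, with a median of 0.52 beside 0.09 for the macrophage markers. Beside Retnla, Cd209a, a lectin gene of dendritic cells and some macrophages, had 15.8, 24.2, 27.3 and 27.2 FPKM at day 7, against 13.4, 9.63, 4.72 and 7.97 FPKM at day 3 (1.36, SE 0.26, limma adjusted p = 0.00392). Lyve1, a hyaluronan receptor of resident perivascular macrophages and lymphatics, was highest at 23 FPKM in day 7 replicate 2 and averaged 10.4 ± 8.45 FPKM at day 7 and 2.55 ± 1.19 FPKM at day 3 (1.52). Arg1, the arginase of alternatively activated macrophages, had 32.9, 205, 109 and 122 FPKM at day 7, against 51.2, 23.9, 13.2 and 46 FPKM at day 3 (1.69, SE 0.50, limma adjusted p = 0.039). Day 7 replicate 1 lay below the highest day 3 libraries in Arg1, and the call was lost without day 7 replicate 3 (limma adjusted p = 0.0741), without day 3 replicate 2 or day 7 replicate 4 (0.0991 each), without day 3 replicate 3 (0.0852), without day 7 replicate 2 (0.0886) and without any of the control libraries (0.0522 to 0.0548). Chil3, the chitinase-like Ym1 gene that is often read beside Retnla and Arg1, went the other way, with 1.6, 13.9, 5.94 and 6.64 FPKM at day 7, against 21.9, 18.1, 37.5 and 21 FPKM at day 3 (−1.87, SE 0.41, limma adjusted p = 0.00929). The number of alternative activation genes that rose was 6 without control replicate 1, day 3 replicate 2 or day 7 replicate 4.

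**Figure D4:**
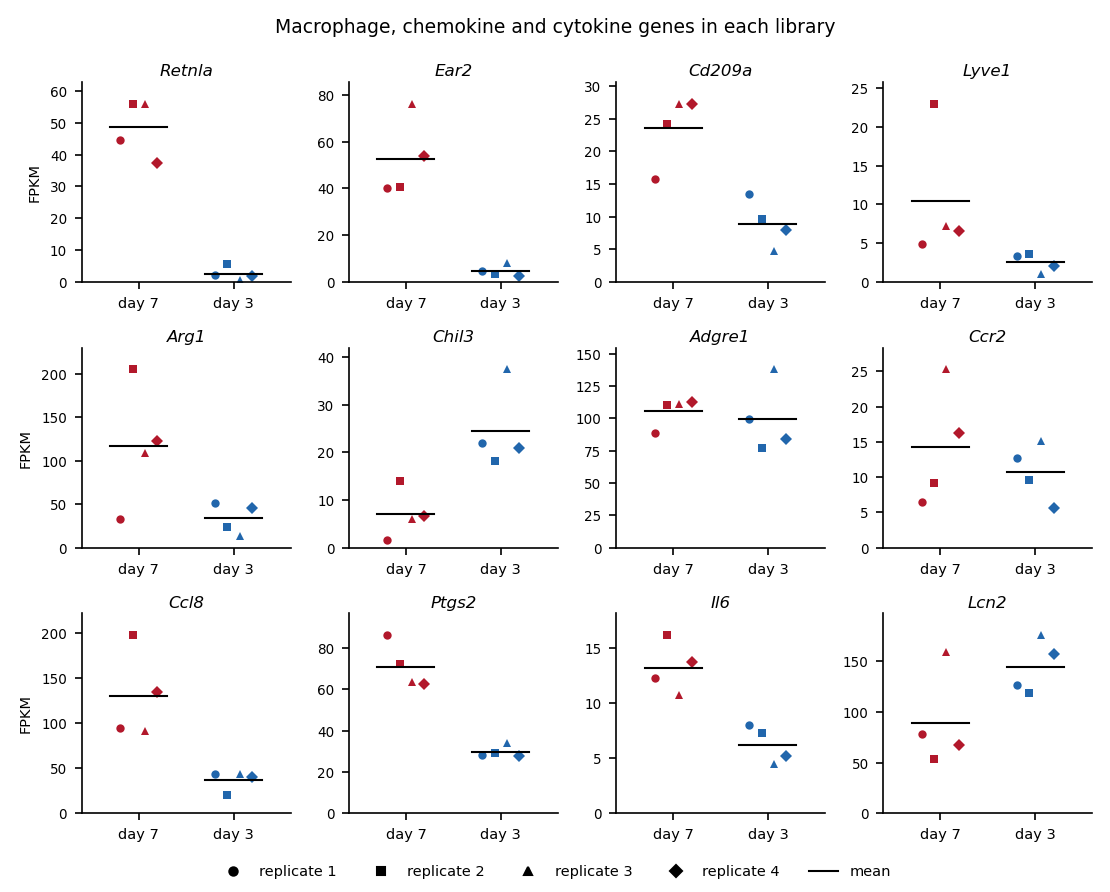
FPKM of 12 genes in each library, with day 7 in red on the left and day 3 in blue on the right of each panel, symbols for the replicate number and a black line at the mean. Retnla, Ear2, Cd209a, Ccl8, Ptgs2 and Il6 are higher in every day 7 library than in any day 3 library and Chil3 is lower in every one. In Arg1, Adgre1, Ccr2 and Lcn2 the days overlap.

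Among 29 chemokines, 10 rose, none fell and 19 were not called, with a median of 0.49. Ppbp, the platelet basic protein gene that megakaryocytes and some macrophages express, had 23, 39.2, 48.1 and 51.5 FPKM at day 7, against 11.1, 4.99, 6.07 and 7.23 FPKM at day 3 (2.30, SE 0.25, limma adjusted p = 0.000249). Ccl8, a chemokine of resident macrophages, had 95.1, 198, 91.4 and 135 FPKM at day 7, against 43.6, 20.3, 43.4 and 40.4 FPKM at day 3 (1.78, SE 0.31, limma adjusted p = 0.00251), with no overlap. Ccl17, a chemokine that attracts T helper cells, rose by 1.13, and the neutrophil attractant Cxcl5 rose by 1.20. In Cxcl5 the lowest day 7 library, at 9.61 FPKM, lay below day 3 replicate 3, at 16 FPKM, and the call was lost with 6 of the 11 libraries left out in turn. Without day 3 replicate 2, 6 chemokines rose.

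Of 37 cytokines and NF-kB targets, 2 rose, 2 fell and 33 were not called, with a median of 0.02 whose sign changed with the library left out (−0.04 without day 3 replicate 1). Ptgs2, the inducible cyclooxygenase, had 86.4, 72.1, 63.3 and 62.4 FPKM at day 7, against 28.1, 29.3, 34 and 27.7 FPKM at day 3 (1.22, SE 0.12, limma adjusted p = 0.000165). Il6, a cytokine of the acute phase, averaged 13.2 ± 2.35 FPKM at day 7 and 6.23 ± 1.67 FPKM at day 3 (0.99). Csf3, the granulocyte colony-stimulating factor (−0.80, limma adjusted p = 0.0351), and the NF-kB cofactor Bcl3 (−0.51, limma adjusted p = 0.0387) fell. No gene of this list was called lower without control replicate 1, day 3 replicates 2, 3 or 4, or day 7 replicates 1 or 4, 4 were without day 3 replicate 1, and 5 were called higher without replicate 3 of either day. Among 39 interferon response genes, 1 rose, 3 fell and 35 were not called, with a median of −0.13. The autophagy-related GTPase gene Irgm1 (−0.68), Ifit3b (−0.62) and Cmpk2 (−0.48) fell, and the interferon regulatory factor Irf7 rose (0.48, limma adjusted p = 0.0366), while 5 fell without control replicate 2. The call of Irf7 was lost with 7 of the 11 libraries left out in turn (limma adjusted p 0.0538 to 0.11), that of Ifit3b with 4 and that of Cmpk2 with 1. Antigen presentation genes were near the background as well, with 1 rise (H2-Ob, 0.39) and 2 falls (the immunoproteasome subunit genes Psmb10, −0.42, and Psmb9, −0.41) in 24. With the libraries left out in turn, the call of Psmb10 was lost in 9 of 11 fits, that of H2-Ob in 4 and that of Psmb9 in 2.

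Complement genes were mixed, with 7 rises, 1 fall and 14 not called in 22 and a median of 0.11. Beside Cfd, the classical pathway protease gene C1s1 averaged 83 ± 21.2 FPKM at day 7 and 22.7 ± 6.88 FPKM at day 3 (1.83), C4b averaged 34.3 ± 9.65 and 11 ± 1.51 FPKM (1.52), and the C1q-like gene C1qtnf6 rose by 1.73. Of 12 neutrophil markers, 9 were not called and 3 rose, namely Mmp8 (1.89), Retnlg (1.34) and Mmp9 (0.99, limma adjusted p = 0.0278). Retnlg averaged 2.94 FPKM at day 7 and 0.564 FPKM at day 3, both below its control mean of 4.02 FPKM. The control means of Mmp8 and Mmp9, at 0.0768 and 0.223 FPKM, lay below both days. The share of the nuclear FPKM in neutrophil markers was highest in replicate 3 of each day, at 0.122% against 0.0604% to 0.0837% in the other day 7 libraries and at 0.156% against 0.0608% to 0.0764% in the other day 3 libraries. Without day 3 replicate 3, 7 neutrophil markers rose. Lymphocyte markers were low. Of 6 B and plasma cell markers tested, Ebf1 (1.19), Jchain (1.06) and Cd79a (0.97) rose and 3 were not called. Cd79a averaged 2.6 ± 0.851 FPKM at day 7 and 0.81 ± 0.142 FPKM at day 3, beside 2.13 FPKM in control kidneys. Jchain averaged 1.52 and 0.157 FPKM, beside 1.08 FPKM in control, and Ebf1 3.95 and 1.11 FPKM, beside 1.14 FPKM in control. Of 12 T and NK cell markers the receptor gene Il7r rose (0.62, limma adjusted p = 0.0351). The call of Il7r was lost with 8 of the 11 libraries left out in turn, at a limma adjusted p of 0.0503 to 0.107, and that of Mmp9 with 4.

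All 3 fibrinogen chain genes fell. Fibrinogen is the clotting protein made of 3 chains, secreted by the liver in the acute phase and also transcribed by injured kidney tubules. Fga had 6.47, 4.72, 8.9 and 6.06 FPKM at day 7, against 37.4, 43.9, 36.3 and 31.7 FPKM at day 3 (−2.36, SE 0.17, limma adjusted p = 6.82e-05). Fgg had 8.62, 6.56, 10.9 and 8.41 FPKM at day 7, against 42, 51.8, 44.2 and 40 FPKM at day 3 (−2.25, SE 0.15, limma adjusted p = 3.11e-05). Within each day these libraries lay close together, and the days were far apart. Fgb had 1.43, 0.978, 1.32 and 0.896 FPKM at day 7, against 12.8, 7.24, 6.44 and 5.17 FPKM at day 3 (−1.99, SE 0.20, limma adjusted p = 0.000198), with day 3 replicate 1 the highest. In control kidneys the 3 genes averaged 2.85, 1.36 and 0.213 FPKM, so day 7 lay above control and below day 3. Day 3 replicate 1 was also the library with liver-type transcripts, and without it Fga differed by −2.36, Fgg by −2.28 and Fgb by −1.75, each still called. Albumin shows what that library held. Alb had 0.701, 0.715, 1.12 and 0.471 FPKM at day 7, against 261, 1.46, 0.585 and 1.23 FPKM at day 3 and was not called (−1.99, SE 1.24, limma adjusted p = 0.309).

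The 3 fibrinogen genes lie within the same stretch of chromosome 3 and fell together, so the 250 bases before their annotated starts are shown, 5′ to 3′ on each gene's strand, from RefSeq in GRCm38.p6. The windows are chr3:83025903-83026152 on the plus strand for Fga, chr3:83049864-83050113 on the minus strand for Fgb and chr3:83007474-83007723 on the plus strand for Fgg. In the annotation of the expression values Fga begins at 83026076, which lies inside its window. Capitals mark CTGGGAA, the core of the interleukin-6 response element known from acute-phase genes, and GTTAAT, an arm of the site bound by the liver and kidney factor HNF1, each searched on both strands (TTCCCAG and ATTAAC on the other).
Fga: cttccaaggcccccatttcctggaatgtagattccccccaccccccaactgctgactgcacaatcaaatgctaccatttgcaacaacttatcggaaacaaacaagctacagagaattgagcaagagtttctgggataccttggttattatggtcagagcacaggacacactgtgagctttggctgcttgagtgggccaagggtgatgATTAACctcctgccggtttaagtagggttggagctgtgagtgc
Fgb: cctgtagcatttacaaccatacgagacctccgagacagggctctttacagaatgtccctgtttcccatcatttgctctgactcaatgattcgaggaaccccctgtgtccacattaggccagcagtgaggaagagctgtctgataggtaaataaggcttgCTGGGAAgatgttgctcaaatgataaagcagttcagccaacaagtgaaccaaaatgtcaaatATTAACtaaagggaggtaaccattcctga
Fgg: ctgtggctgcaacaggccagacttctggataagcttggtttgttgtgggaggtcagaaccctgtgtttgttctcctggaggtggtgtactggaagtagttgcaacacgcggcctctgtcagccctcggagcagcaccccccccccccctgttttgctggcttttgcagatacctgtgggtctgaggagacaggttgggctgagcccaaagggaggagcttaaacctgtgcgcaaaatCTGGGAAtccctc
CTGGGAA was found once in Fgb, 91 to 85 bases before the start, and once in Fgg, 13 to 7 bases before it, and not in the Fga window. GTTAAT was found on the opposite strand in Fga, 43 to 38 bases before the start, and in Fgb, 29 to 24 bases before it. No match of one motif overlapped one of the other. Of 32851 windows of this length in the RefSeq table, 9.1% held CTGGGAA and 6.43% held GTTAAT. A match is a description of the letters in the window, not a site.

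Tubule injury genes went in both directions. Of 26 injury and repair genes, 4 rose, 6 fell and 16 were not called, with a median of −0.10. The fibrinogen genes Fga, Fgg and Fgb, described above, are members of this list and are among the 6 that fell. Havcr1, the kidney injury molecule KIM-1 of damaged proximal tubules, had 54, 46.5, 83 and 60.3 FPKM at day 7, against 40.2, 65.3, 77.2 and 74.3 FPKM at day 3 (−0.06, SE 0.21, limma adjusted p = 0.868), where control kidneys averaged 0.705 FPKM. Lcn2, which encodes the iron-binding lipocalin NGAL of injured distal tubules and neutrophils, had 78.2, 53, 159 and 67 FPKM at day 7, against 126, 119, 176 and 157 FPKM at day 3 (−0.80, SE 0.28, limma adjusted p = 0.0719). Replicate 3 was the highest library of each day for Lcn2, as it was for the neutrophil share, and without day 7 replicate 3 Lcn2 was called lower (−1.11, limma adjusted p = 0.00136). Krt20, a keratin that injured tubules take on, rose, with 15.5, 9.89, 15.4 and 11.7 FPKM at day 7 against 3.66, 6.53, 6.58 and 9.63 FPKM at day 3 (0.93, SE 0.23, limma adjusted p = 0.0175). That call was lost without day 7 replicate 1 (limma adjusted p = 0.0556) and without day 7 replicate 3 and day 3 replicate 1 together (0.0754). Without day 7 replicate 1, 1 injury gene was called higher.

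The proximal tubule, which reabsorbs most of the filtrate, held the highest share of falling genes among the 49 lists. Of 28 markers, 26 fell, none rose and 2 were not called, with a median of −1.25, and 24 to 27 fell with each library left out in turn. Slc34a1, the sodium-phosphate cotransporter of the brush border, had 36, 38, 24.2 and 44.7 FPKM at day 7, against 99.6, 182, 84.7 and 149 FPKM at day 3 (−1.79, SE 0.23, limma adjusted p = 0.000632). Miox, the inositol oxygenase of proximal tubule cells, had 22.5, 19.6, 13.7 and 21.7 FPKM at day 7, against 62.5, 103, 54.7 and 98.8 FPKM at day 3 (−1.96, SE 0.22, limma adjusted p = 0.000267). In both, replicate 3 was the lowest library of each day, and both were drawn from genes whose days did not overlap. Lrp2, which encodes the endocytic receptor megalin, averaged 3.94 ± 1.04 FPKM at day 7 and 13.2 ± 5.61 FPKM at day 3 (−1.48). Kap, the androgen-regulated protein gene of the proximal tubule, had 442, 455, 403 and 478 FPKM at day 7, against 806, 1094, 608 and 1068 FPKM at day 3 (−0.97, SE 0.17, limma adjusted p = 0.00284). The gluconeogenic enzyme gene Fbp1 (−1.69) and the organic anion transporter gene Slc22a6 (−1.58) fell too. The list made up 0.302% to 0.379% of the nuclear FPKM at day 7 and 0.528% to 0.978% at day 3.

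Fewer calls were made in distal segments. Markers of the distal nephron and the collecting duct numbered 24, of which 4 fell, none rose and 20 were not called, with a median of −0.21. Aqp2, the vasopressin-regulated water channel of the collecting duct, had 31.8, 41.1, 23.7 and 29.5 FPKM at day 7, against 88.5, 114, 47.6 and 167 FPKM at day 3 (−1.59, SE 0.32, limma adjusted p = 0.00612). The tight junction gene Cldn19 (−0.93), the sodium pump modulator gene Fxyd2 (−0.81) and Umod (−0.60) fell as well. In Cldn19 and Fxyd2 day 3 replicate 3 lay near the day 7 libraries, at 5.92 and 42.3 FPKM, and without it 8 distal markers fell. Of 24 general epithelial genes, Krt20 rose, 3 fell and 20 were not called, with a median of −0.39. Those that fell were the adhesion genes Cdh1 (−0.64, limma adjusted p = 0.0179) and Epcam (−0.48, limma adjusted p = 0.0278) and the splicing factor gene Esrp2 (−0.59, limma adjusted p = 0.00859). The number of general epithelial genes that fell was 1 without day 3 replicate 2, day 3 replicate 4, day 7 replicate 1 or day 7 replicate 4, 7 without control replicate 2 and 8 without day 3 replicate 3. The call of Epcam was lost in 6 and that of Cdh1 in 4 of the 11 such fits.

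**Figure D5:**
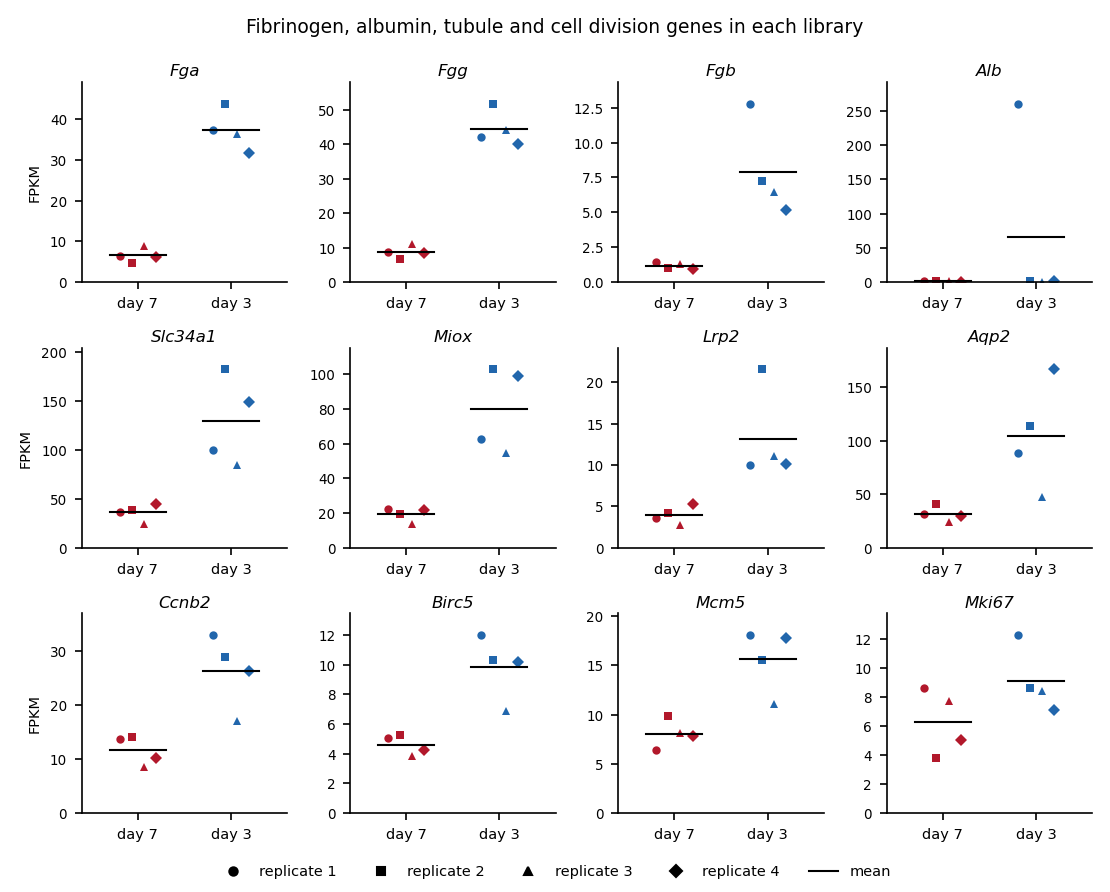
FPKM of 12 genes in each library, with day 7 in red on the left and day 3 in blue on the right of each panel, symbols for the replicate number and a black line at the mean. In Fga, Fgg, Slc34a1, Miox, Ccnb2 and Birc5 every day 7 library lies below every day 3 library. Alb is high in day 3 replicate 1 alone, at 261 FPKM, and the days overlap in Mki67.

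Genes of cell division were lower at day 7 in part. Of 32 mitosis genes, 13 fell, none rose and 19 were not called, with a median of −0.51. Ccnb2, a cyclin of mitotic entry, had 13.6, 14, 8.58 and 10.2 FPKM at day 7, against 32.9, 28.8, 17 and 26.2 FPKM at day 3 (−1.10, SE 0.19, limma adjusted p = 0.00284). Birc5, which encodes survivin of the chromosomal passenger complex, averaged 4.59 ± 0.662 FPKM at day 7 and 9.85 ± 2.14 FPKM at day 3 (−0.94), and the ubiquitin-conjugating enzyme gene Ube2c fell by 0.91 on the log2 scale. Cdca8, another passenger complex gene, averaged 2.26 ± 0.372 FPKM at day 7 and 4.48 ± 1.05 FPKM at day 3 (−0.73). Replicate 3 was the lowest library of each day in these 4 genes, and the days did not overlap. Mki67, the proliferation marker Ki-67, had 8.6, 3.8, 7.76 and 5.04 FPKM at day 7, against 12.3, 8.66, 8.42 and 7.1 FPKM at day 3 and was not called (−0.50, SE 0.21, limma adjusted p = 0.134). The number of mitosis genes that fell was 7 without day 3 replicate 1, day 3 replicate 2, day 7 replicate 3 or day 7 replicate 4, and 20 without day 3 replicate 3. With day 7 replicate 3 and day 3 replicate 1 both left out, 6 fell. Control means were lower still, at 1.5 FPKM for Ccnb2 and 0.998 FPKM for Mki67.

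Of 38 DNA replication genes, 19 fell, 1 rose and 18 were not called, with a median of −0.38. Mcm5, a subunit of the replicative helicase, had 6.38, 9.84, 8.12 and 7.82 FPKM at day 7, against 18.1, 15.5, 11.1 and 17.8 FPKM at day 3 (−0.87, SE 0.18, limma adjusted p = 0.00725). Uhrf1, which keeps DNA methylation through replication (−0.76), the DNA ligase gene Lig1 (−0.68) and the helicase subunit gene Mcm3 (−0.68) fell without overlap. Without day 3 replicate 1, 11 replication genes fell, and without day 7 replicate 4, 12. With day 7 replicate 3 and day 3 replicate 1 both left out, 8 fell. Among 26 p53 target and senescence genes, 5 rose, none fell and 21 were not called, with a median of 0.19. Cdkn2a, the locus of the cell cycle inhibitor p16, had 3.07, 2.38, 1.37 and 1.38 FPKM at day 7, against 0.674, 0.563, 0.509 and 0.574 FPKM at day 3 (0.91, SE 0.16, limma adjusted p = 0.00239), and the inhibitor gene Cdkn1c (0.85), Phlda3 (1.07) and the receptor gene Eda2r (0.65) rose. Cdkn1c, which is also in the podocyte list, averaged 9.68 FPKM at day 7 and 4.91 FPKM at day 3. Both means lay below its control mean of 21.1 FPKM.

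CCAAT boxes, which the factor NF-Y binds, are a known feature of mitotic gene promoters, so the windows of Ccnb2 and Cdca8 are shown, chosen after their matches were seen. They are the 250 bases before the annotated start, 5′ to 3′ on the gene's strand, at chr9:70421555-70421804 (minus strand) and chr4:124936918-124937167 (minus strand) from RefSeq in GRCm38.p6. In the annotation of the expression values Cdca8 spans 124918465 to 124939311, so its window is upstream of the RefSeq start only and lies inside that span. Capitals mark CCAAT or, on the other strand, ATTGG.
Ccnb2: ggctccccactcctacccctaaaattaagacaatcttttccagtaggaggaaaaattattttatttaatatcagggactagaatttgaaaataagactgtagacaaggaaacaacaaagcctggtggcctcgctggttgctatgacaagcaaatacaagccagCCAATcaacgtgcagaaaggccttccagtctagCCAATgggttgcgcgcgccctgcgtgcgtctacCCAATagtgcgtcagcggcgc
Cdca8: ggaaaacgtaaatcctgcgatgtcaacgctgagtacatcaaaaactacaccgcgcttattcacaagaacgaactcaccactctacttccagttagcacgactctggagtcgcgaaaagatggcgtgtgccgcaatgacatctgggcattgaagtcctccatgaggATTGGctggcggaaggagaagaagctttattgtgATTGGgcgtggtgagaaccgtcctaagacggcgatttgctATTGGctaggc
Ccnb2 held 3 matches, starting 87, 54 and 21 bases before the start, and Cdca8 held 3 on the opposite strand, starting 85, 51 and 11 bases before it. Matches did not overlap each other. Among all windows in that table, 33.8% held CCAAT on either strand and 2.79% held 3 or more matches. Nothing about the factor follows from these letters.

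Genes of mitochondrial metabolism leaned downward by small amounts. Of 36 nuclear oxidative phosphorylation genes, 14 fell, none rose and 22 were not called, with a median of −0.38, and a lowest member at −0.57. Cyc1, a subunit of complex III, averaged 61.7 ± 6.32 FPKM at day 7 and 93.9 ± 21.9 FPKM at day 3 (−0.57, limma adjusted p = 0.0335), and Sdhb (−0.51), Ndufb8 (−0.50) and Atp5b (−0.49), of other complexes, fell by similar amounts. These calls depended on which libraries were used. None was left without day 3 replicate 2, day 3 replicate 4, day 7 replicate 1 or day 7 replicate 4, 4 without day 3 replicate 1, 5 without day 7 replicate 3 and 26 without day 3 replicate 3, and none without day 7 replicate 3 and day 3 replicate 1 together. Of the 13 mitochondrial genome genes, mt-Co3 fell (−0.37, limma adjusted p = 0.0432) and 12 were not called. The call of mt-Co3 was lost with 8 of the 11 libraries left out in turn, at a limma adjusted p of 0.0535 to 0.129, while 3 genes of the mitochondrial genome fell without day 7 replicate 3 and 2 without control replicate 2. Among 30 fatty acid oxidation genes, 8 fell, none rose and 22 were not called, with a median of −0.37. The peroxisomal enzyme gene Ehhadh had 7.89, 7.61, 7.14 and 9.39 FPKM at day 7, against 20.3, 26.2, 14.4 and 24 FPKM at day 3 (−1.28, SE 0.17, limma adjusted p = 0.000627), and the thioesterase genes Acot1 (−0.85) and Acot2 (−0.78), whose sequences are near-identical in part, and the kinase gene Pdk4 (−0.68) fell. Control means of Ehhadh and Acot1, at 107 and 5.44 FPKM, lay above the means of both days. Acot2 averaged 18.8 FPKM in control, 31.2 FPKM at day 3 and 17.7 FPKM at day 7. Pdk4 averaged 31.2, 59.8 and 36.9 FPKM in the same order, so both fell from a day 3 mean above control. The number of fatty acid oxidation genes that fell was 4 without day 3 replicate 2 or day 7 replicate 1, 5 without control replicate 1, day 3 replicates 1 or 4, or day 7 replicates 2, 3 or 4, and 18 without day 3 replicate 3. Proximal tubule markers, whose cells are rich in mitochondria, fell beside these genes, and their part in these values was not tested.

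Calls in further metabolic and stress lists are given beside 7.37% of all genes tested called higher and 8.37% called lower. In cholesterol synthesis 6 of 26 genes fell, among them Acat2 (−0.58), Mvd (−0.55) and Sqle (−0.53). In glycolysis and hypoxia, the hypoxia-induced gene Ndrg1 (78.2 ± 8.22 FPKM at day 7 and 149 ± 37.2 FPKM at day 3, −0.89) and the hexokinase gene Hk1 (−0.50) fell, the peptide hormone gene Adm rose (0.66) and 25 of 28 were not called, the call of Hk1 being lost with 7 of the 11 libraries left out in turn and that of Adm with 2. Of 28 oxidative stress defence genes, Gpx3 (−1.04, limma adjusted p = 0.0411), Gsta2 (−0.74), the catalase gene Cat (−0.59) and Sod2 (−0.57) fell, and 2 fell without day 3 replicates 2 or 4 or day 7 replicate 4. The call of Gpx3 was lost in 9 and that of Gsta2 in 5 of the 11 fits that leave out a library. In the secretory pathway Creb3l1, a transcription factor gene known to activate collagen genes, averaged 22.6 ± 8.46 FPKM at day 7 and 9.8 ± 1.07 FPKM at day 3 (1.04) and the coat protein gene Sec23a rose (0.59), while the stress genes Trib3 (−0.82) and Hyou1 (−0.48) fell. In that list of 28, 2 rose and 4 fell in all, but the falls numbered 0 without day 3 replicate 2 or day 7 replicates 3 or 4, 1 without day 3 replicates 1 or 4 or day 7 replicate 1, 2 without control replicate 1 and 7 without day 7 replicate 2. The rises numbered 4 without day 7 replicate 3 and 1 without day 7 replicate 4. Of 17 heat shock genes 5 rose, among them the collagen chaperone gene Serpinh1 (153 ± 32.1 and 91.3 ± 25 FPKM, 0.76), Hspb8 (0.79), Dnajb1 (0.59) and Bag3 (0.41), but 1 rose without replicate 2 of either day, 2 without day 7 replicate 1 and 3 without day 3 replicates 3 or 4 or day 7 replicates 3 or 4. Of 28 lysosomal genes 4 fell, among them Tfeb (−0.62), Gusb (−0.47) and Neu1 (−0.34), and 1 fell without day 3 replicate 4 or day 7 replicate 1 and 2 without day 3 replicate 2 or day 7 replicates 2 or 4.

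Some markers of cells that line or surround the kidney rose with the matrix genes. Of 9 mesothelial markers tested, 7 rose and 2 were not called, with a median of 1.16, and the summed FPKM of the list ranged from 75.7 to 152 at day 7 and from 26.3 to 58.9 at day 3. Much of these sums came from Igfbp6, named above among the growth factor genes and also in this list. Igfbp6 had 82.3, 92.2, 37.1 and 79.4 FPKM at day 7, against 8.23, 23.3, 7.13 and 20.1 FPKM at day 3. Upk1b had 8.29, 3.59, 2.01 and 1.66 FPKM at day 7, against 0.367, 0.892, 0.345 and 0.637 FPKM at day 3 (1.48, SE 0.31, limma adjusted p = 0.00772). Nkain4 (1.39) and Rspo1 (1.27) were likewise highest in day 7 replicate 1, the library with the most periostin and asporin, and Wt1, shared with podocytes, rose by 0.90. Of 8 urothelial markers 4 were not called and 4 rose, with a median of 0.69. Those that rose included the keratin genes Krt14 (1.32) and Krt15 (0.79) and the uroplakin gene Upk3a (0.59, limma adjusted p = 0.0476), whose call was lost with 8 of the 11 libraries left out in turn. Upk3a averaged 0.817 FPKM at day 7 and 0.185 FPKM at day 3, both below its control mean of 2.15 FPKM. The day 7 means of Krt14, Krt15 and Upk1b lay above control. Of 6 adipocyte markers tested 2 rose, Adipoq and Cfd, none fell and 4 were not called, with a median of 0.12 and a lowest member at −0.15. Adipoq, the fat cell hormone adiponectin, had 3.94, 4.1, 0.403 and 5.13 FPKM at day 7, against 0, 0.218, 0.276 and 0 FPKM at day 3 (1.78, SE 0.37, limma adjusted p = 0.00644), and like Cfd it was low in day 7 replicate 3. Of 5 glia and neuron markers tested, the neural cell adhesion gene Ncam1 (1.22) and the glial gene S100b (1.14) rose and 3 were not called, with a median of 0.51 and a lowest member at −0.31. The share of the matrix rise that came with these cells was not tested.

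Of 22 endothelial markers, 2 rose, none fell and 20 were not called, with a median of 0.04 that turned to −0.04 without day 3 replicate 4 and to −0.02 without day 7 replicate 4. The number that rose was 1 without control replicate 1, day 3 replicates 2 or 4, or day 7 replicates 1, 2 or 4, and 3 without day 7 replicate 3. Pecam1, the adhesion molecule CD31 of endothelium, had 16, 13.9, 11.7 and 18.7 FPKM at day 7, against 15.4, 15.4, 15.2 and 13.7 FPKM at day 3 (SE of the log2 difference 0.13, limma adjusted p = 0.995). The apelin receptor gene Aplnr (0.95) and Vwf (0.44, limma adjusted p = 0.0338) rose, the call of Vwf being lost with 7 of the 11 libraries left out in turn. Of 24 hepatocyte markers tested, the 3 fibrinogen genes fell, the haptoglobin gene Hp rose (1.15, limma adjusted p = 0.0416) and 20 were not called, with a median of −1.26 that was −0.11 without day 3 replicate 1. Without day 3 replicate 1, 6 hepatocyte markers fell, and 6 did without day 3 replicate 3. The call of Hp was lost with 9 of the 11 libraries left out in turn, at a limma adjusted p of 0.051 to 0.12, and without day 7 replicate 3 and day 3 replicate 1 together 5 hepatocyte markers rose and 5 fell. Of 14 podocyte markers 2 rose, of 8 dendritic cell markers Cd209a rose, and of 10 red blood cell and platelet markers Ppbp rose, with none lower in any of these lists. The podocyte markers that rose were Wt1 and Cdkn1c, which also belong to other lists. These small counts, and that of the endothelial markers, stand beside 7.37% of all genes tested called higher, and nothing about these cells is read from them. The Y-linked genes Ddx3y (0.50, limma adjusted p = 0.251) and Eif2s3y (0.11, limma adjusted p = 0.794) were not called.

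Some highly expressed genes differed little between the days. The 43 cytosolic ribosomal protein genes had a median of −0.10, 0 of them were called by limma, 0 had an unadjusted p under 0.05 and their differences ran from −0.22 to 0.13, with Rplp1 at 998 ± 72.3 FPKM at day 7 and 985 ± 95.4 FPKM at day 3. In 463 of the 13428 genes tested the 95% interval of the difference lay within ±0.25 on the log2 scale. The 6 most highly expressed of these were the chaperone gene Hsp90ab1 (647 ± 32.8 FPKM at day 7 and 643 ± 16.8 FPKM at day 3, 0.01), Ptma, which encodes prothymosin (−0.02), the ribosomal protein genes Rps27a (−0.03) and Rpl7 (0.02), the poly(A)-binding protein gene Pabpc1 (0.04) and the RNA-binding protein gene Hnrnpab (0.01). These 6 genes were chosen by that interval, so their small differences follow from the choice.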

How the data were processed

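RNA-seq of 11 libraries was taken from the authors' deposited table of FPKM values per gene (13985 genes), and the deposited FPKM values per transcript were summed per gene as an alternative. Per the submitters' processing notes, the tools were cutadapt, HISAT2 and StringTie and the build was GRCm38. The sources used here give no tool versions, no annotation release and no settings for counting. Low values showed no steps of whole reads, so the depth of a library is unknown and counting error could not be put into intervals.

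Genes whose mean over the 11 libraries reached 0.5 FPKM were kept, which left 13428 and removed 557. The deposited values were put on a log2 scale as log2(FPKM + 1) and tested in limma 3.58.1 (R 4.3.3) with day 7, day 3 and control as groups and a mean-variance trend. The contrast was day 7 minus day 3, with Benjamini-Hochberg adjustment over all genes tested and a threshold of 0.05. The fit was tested on simulated data. Tables were made with pandas 2.3.3 and numpy 2.4.6 in Python 3.11.15, and figures with matplotlib 3.10.9. No batch is named in the labels.

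The comparison and its 49 gene lists were chosen with earlier results of these data known. Genes were named by 4 criteria: as the called genes that rose most and fell most (12 each) where one day averaged 5 FPKM or more, the days did not overlap and the symbol was not provisional, as up to 4 called members of each list with the largest differences (or, with none called, the 2 highest at day 7), as a set of 20 genes chosen for the tissue, and as the 6 highest genes whose 95% interval lay within ±0.25. Of the 188 genes so named, 135 had an entry in the RefSeq promoter table. The promoters printed were chosen after their matches were seen. Alternatives were other pseudocounts, filters, scalings and sources, a replicate block and leaving out each library. Results for 2 of the named genes are not reported here.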

Additional observations from a re-analysis of the deposited data

Results flagged for a closer look

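A library was singled out where the gap between it and the nearest of the other 3 libraries of its day, as a share of the whole range of the 4, exceeded Dixon's 95% critical value. The gap was taken on log2(FPKM + 1) for genes, which are printed in FPKM, and on the percent share for lists. This held in 50 of 474 groups of 4, and chance gives about 1 in 20. Causes were not tested.

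Day 7 replicate 1 lay below the other day 7 libraries in Gusb (31.7 FPKM against 37.2 to 38.4 FPKM) and Adgre1 (88.5 FPKM against 110 to 113 FPKM). Day 7 replicate 1 lay above the other day 7 libraries in Rpl7 (196 FPKM against 178 to 180 FPKM). Day 7 replicate 1 lay below the other day 7 libraries in the share of nuclear FPKM of DNA replication genes (0.106% against 0.112 to 0.113%). Day 7 replicate 2 lay below the other day 7 libraries in H2-Ob (2.92 FPKM against 3.19 to 3.2 FPKM). Day 7 replicate 3 lay below the other day 7 libraries in Cyp2d26 (1.28 FPKM against 2.34 to 2.47 FPKM), Col1a1 (563 FPKM against 1390 to 1498 FPKM), Col1a2 (229 FPKM against 581 to 611 FPKM), Col5a1 (49.3 FPKM against 151 to 173 FPKM), Col16a1 (12.6 FPKM against 33.1 to 37.3 FPKM) and P4ha3 (2.07 FPKM against 6.63 to 7.33 FPKM). It was likewise apart in Adamts2 (10.8 FPKM against 25.3 to 30 FPKM), Loxl1 (30.2 FPKM against 68.7 to 78.6 FPKM), Mmp2 (48.2 FPKM against 112 to 115 FPKM), Mmp23 (11.1 FPKM against 26 to 30.6 FPKM), Mfap5 (15.6 FPKM against 44.7 to 48.7 FPKM) and Fstl1 (121 FPKM against 278 to 286 FPKM). It was likewise apart in Ltbp4 (8.81 FPKM against 20.1 to 23.4 FPKM), Igfbp6 (37.1 FPKM against 79.4 to 92.2 FPKM), C1s1 (51.9 FPKM against 90.2 to 99.3 FPKM), Adipoq (0.403 FPKM against 3.94 to 5.13 FPKM), Col3a1 (348 FPKM against 898 to 983 FPKM) and Pdgfrb (9.72 FPKM against 21.2 to 23.3 FPKM). Day 7 replicate 3 lay below the other day 7 libraries in the share of nuclear FPKM of fibrillar collagens (0.51% against 1.29 to 1.34%), other collagens (0.0856% against 0.211 to 0.232%), stromal and pericyte genes (0.364% against 0.502 to 0.515%) and TGF-beta pathway (0.233% against 0.333 to 0.339%). Day 7 replicate 3 lay above the other day 7 libraries in the share of nuclear FPKM of cytokines and NF-kB targets (0.632% against 0.51 to 0.529%). Day 7 replicate 4 lay above the other day 7 libraries in the share of nuclear FPKM of fatty acid oxidation genes (0.228% against 0.214 to 0.216%). Day 3 replicate 1 lay above the other day 3 libraries in Alb (261 FPKM against 0.585 to 1.46 FPKM). Day 3 replicate 1 lay above the other day 3 libraries in the share of nuclear FPKM of hepatocyte markers (0.354% against 0.0424 to 0.0538%). Day 3 replicate 2 lay below the other day 3 libraries in Ccl8 (20.3 FPKM against 40.4 to 43.6 FPKM) and Rps27a (182 FPKM against 198 to 200 FPKM). Day 3 replicate 2 lay above the other day 3 libraries in Fap (1.02 FPKM against 0.562 to 0.603 FPKM), mt-Co3 (2351 FPKM against 2099 to 2130 FPKM) and Lrp2 (21.6 FPKM against 10 to 11.1 FPKM). Day 3 replicate 3 lay below the other day 3 libraries in Col16a1 (3.64 FPKM against 6.3 to 6.86 FPKM), Loxl1 (10.6 FPKM against 18.6 to 19.8 FPKM), Cldn19 (5.92 FPKM against 13.1 to 13.7 FPKM) and Esrp2 (3.98 FPKM against 5.92 to 6.36 FPKM). Day 3 replicate 3 lay below the other day 3 libraries in the share of nuclear FPKM of stromal and pericyte genes (0.257% against 0.311 to 0.313%) and urothelial markers (0.00565% against 0.00794 to 0.00807%). Day 3 replicate 3 lay above the other day 3 libraries in the share of nuclear FPKM of cytokines and NF-kB targets (0.594% against 0.514 to 0.522%), complement genes (1.16% against 0.852 to 0.891%) and neutrophil markers (0.156% against 0.0608 to 0.0764%). Day 3 replicate 4 lay below the other day 3 libraries in Tgfb3 (5.52 FPKM against 6.86 to 6.94 FPKM), Pecam1 (13.7 FPKM against 15.2 to 15.4 FPKM) and Hnrnpab (149 FPKM against 159 to 161 FPKM). Day 3 replicate 4 lay above the other day 3 libraries in the share of nuclear FPKM of red blood cell and platelet markers (0.193% against 0.0653 to 0.0733%).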

How the results depend on the processing

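Of 188 named genes, 131 kept their direction and their side of the threshold under all 24 alternatives, and under each alternative 0 genes called in both had opposite signs. The number called was 1971 after rescaling to TPM, 2080 with median centring, 2243 with quantile normalization, 1733 from the transcript table and 1770 from the 8 UUO libraries alone. With a minimum mean of 2 FPKM, 604 genes were called higher, where fewer genes were tested. Without day 7 replicate 3 and day 3 replicate 1 together (the doubted libraries), 661 were called lower, and the cause was not tested. With each library left out in turn, 1366 to 2599 genes were called, 705 to 1085 higher and 614 to 1630 lower. The deviations of same-numbered libraries from their day's mean correlated at 0.103, −0.027, 0.338 and −0.03 across genes for replicates 1 to 4, and not every library correlated best with its own number (day 7 replicate 2 with day 3 replicate 4, 0.464), so the numbers were not taken to pair the samples. With the replicate block, 2336 genes were called, 1094 higher and 1242 lower.

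The signs that changed belonged to genes that were not called, most of them near 0 and Ccr2 at 0.29 (SE 0.36), and the cause was not tested. Pecam1 was at 0.03 with median centring, 0.07 with quantile normalization, 0.05 in TPM, 0.04 in TPM without mitochondrial genes and 0.12 without both doubted libraries. Rps27a was at 0.01, 0.07, 0.03, 0.01 and 0.00 under the same settings in that order. Ptma was at 0.01 with median centring, 0.03 in TPM and 0.01 in TPM without mitochondrial genes, and Havcr1 was at 0.02 with quantile normalization. From the transcript table Hsp90ab1 was at −0.01, Rpl7 at −0.03 and Hnrnpab at −0.01, and without both doubted libraries Eif2s3y was at −0.01. With each library left out in turn the log2 difference ran from −0.05 to 0.27 for Eif2s3y, −0.03 to 0.08 for Rplp1, −0.03 to 0.57 for Ccr2, −0.27 to 0.05 for Havcr1, −0.10 to 0.10 for Pecam1, −0.01 to 0.04 for Hsp90ab1, −0.06 to 0.03 for Ptma, −0.06 to 0.01 for Rps27a, −0.02 to 0.05 for Rpl7 and −0.01 to 0.03 for Hnrnpab. Depth is unknown, so the precision of low genes rests on the spread between libraries alone.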
